A study of Mus musculus with 104 samples.

Results

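The 35 genes described here are immediate early and other activity-dependent genes, taken by name from a list of such genes. All 35 had a row among the 45808 gene rows of the count table. Each library held the RNA of 1 mouse substantia nigra neuron, labelled a dopaminergic neuron, whose content was drawn into a patch pipette (patch-seq) and copied into full-length cDNA by Smart-seq2. There were 38 libraries titled experiment and 66 titled control. The series concerns fluorescent reporters that make Lewy pathology visible in living brain, Lewy pathology being the inclusions of α-synuclein that mark Parkinson's disease. Its design text describes collecting neurons of the substantia nigra pars compacta that carried inclusions of an EGFP-tagged α-synuclein named α-Syn-6H-EGFP, from mice anaesthetised with tribromoethanol and perfused with ice-cold solution. The slices were warmed and then kept at room temperature before collection. The labels give no genotype, strain, age, animal or vector for either group, and do not say which neurons served as controls or whether these carried a reporter. The labels name no animal and each library is 1 neuron, so each group counted as 1 sample. No test between the groups was made, and every comparison below is a description of these libraries.

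Immediate early genes are transcribed within minutes of a stimulus, without new protein synthesis, from promoters that are already poised. In neurons, synaptic activity and calcium entry act through kinases on factors such as CREB and SRF, and growth factors and cell stress can drive many of the same genes. Several products are transcription factors (the AP-1, EGR, NR4A and NPAS4 proteins) that switch on later genes. Others shut the signal off again (dual-specificity phosphatases) or act at the synapse (ARC, HOMER1, BDNF). In brain tissue the preparation of slices is itself known to induce many of these genes, and no library of undissected tissue was analysed here.

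Libraries held between 116567 and 3094036 gene counts in the experiment group (median 960027) and between 153770 and 2577694 in the control group (median 1039850). The median number of genes detected was 7354 in the experiment and 8548 in the control group, and the median share of mitochondrial counts was 4.33% and 2.72%. All 8 dopaminergic markers were expressed. Their summed level had a median of 16043 CPM (a gene's counts per total gene counts, on a scale common to all libraries) in experiment libraries (578 to 23575) and 21284 CPM in control libraries (2023 to 34320). Transcripts of glia were present in both groups: markers of astrocytes, microglia and oligodendrocytes summed to a median of 2127 CPM (67.4 to 15218) in experiment and 1299 CPM (380 to 10428) in control libraries. Of the expressed markers, 7 of 9 for astrocytes, 2 of 6 for microglia, 1 of 6 for oligodendrocytes and 3 of 4 for GABAergic neurons were at least 1.5-fold higher in the experiment group. At least 1.5-fold lower were 1 of 2 for oligodendrocyte precursors and 1 of 8 for dopaminergic neurons. The 2 glutamatergic markers passed neither way. Over all expressed genes 7.77% were higher and 11% lower by the same rule. Markers of endothelium, mural cells and blood were not expressed, and Cldn5, the tight-junction protein of brain endothelium, had no count in any library. The experiment libraries titled Experiment27 and Experiment52 stood apart. They had the highest glial sums of all libraries (14816 and 15218 CPM) and the highest sums of the 35 members (16325 and 18726 CPM), with dopaminergic sums of 578 and 3472 CPM. Calls of the members, and ratios of several, are also given without them, an alternative chosen after the data were seen. Marker calls, values by title or record order, and named genes outside the list are given only with them in. In pooled libraries, fewer neurons with a transcript and less transcript per neuron cannot be told apart. The values of single libraries are therefore given with the group levels.

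Promoters of 5 members that varied together over control neurons, and were picked for that, are shown first. No link between their letters and that pattern was tested. RefSeq windows of GRCm38.p6, from 250 bases before to 50 bases after the start site, were found for 25 of the 35 members. Unmatched were Egr1, Egr3, Arc, Ier2, Klf10, Per2, Sik1, Nptx2, Vgf and Trib1. The windows lie at chr12:85473640-85473939, plus strand (Fos), chr7:19309996-19310295, minus strand (Fosb), chr8:84978699-84978998, minus strand (Junb), chr17:26508423-26508722, minus strand (Dusp1) and chr1:134079106-134079405, minus strand (Btg2). Each is written 5′ to 3′ along the gene's own strand, and capitals mark TGACG on either strand. TGACG is the core of the cyclic AMP response element, and TGACGTCA is that element's full palindrome.
Fos: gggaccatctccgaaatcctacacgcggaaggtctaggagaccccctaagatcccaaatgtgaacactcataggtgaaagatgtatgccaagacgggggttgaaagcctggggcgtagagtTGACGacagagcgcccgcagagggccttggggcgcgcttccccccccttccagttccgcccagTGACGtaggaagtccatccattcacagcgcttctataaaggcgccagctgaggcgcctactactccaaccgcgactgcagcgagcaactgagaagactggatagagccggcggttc
Fosb: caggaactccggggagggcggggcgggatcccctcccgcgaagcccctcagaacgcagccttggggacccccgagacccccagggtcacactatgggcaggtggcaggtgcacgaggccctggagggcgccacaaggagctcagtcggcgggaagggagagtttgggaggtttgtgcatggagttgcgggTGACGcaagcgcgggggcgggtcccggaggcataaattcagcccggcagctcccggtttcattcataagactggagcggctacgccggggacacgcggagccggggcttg
Junb: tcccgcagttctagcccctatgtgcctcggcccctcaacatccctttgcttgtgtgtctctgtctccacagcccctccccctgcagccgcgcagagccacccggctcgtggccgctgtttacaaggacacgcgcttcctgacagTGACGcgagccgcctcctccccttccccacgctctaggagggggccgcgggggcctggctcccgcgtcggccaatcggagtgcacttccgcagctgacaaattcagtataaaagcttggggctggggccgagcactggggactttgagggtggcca
Dusp1: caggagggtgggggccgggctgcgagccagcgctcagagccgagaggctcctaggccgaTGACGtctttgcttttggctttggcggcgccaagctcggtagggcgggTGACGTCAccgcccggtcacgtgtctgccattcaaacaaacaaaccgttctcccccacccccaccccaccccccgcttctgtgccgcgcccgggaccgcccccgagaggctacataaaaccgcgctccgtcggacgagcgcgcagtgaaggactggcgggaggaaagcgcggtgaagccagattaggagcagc
Btg2: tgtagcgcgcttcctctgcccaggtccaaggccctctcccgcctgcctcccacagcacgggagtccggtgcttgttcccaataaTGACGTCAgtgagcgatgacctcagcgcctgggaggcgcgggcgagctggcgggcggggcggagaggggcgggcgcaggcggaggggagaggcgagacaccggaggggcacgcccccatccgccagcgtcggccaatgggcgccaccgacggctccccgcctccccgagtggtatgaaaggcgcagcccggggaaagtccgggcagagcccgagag

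Counted from the start site, the first base of TGACG lay at −129 and −66 in Fos, −60 in Fosb, −106 in Junb, −191, −143 and −140 in Dusp1, and −166 and −163 in Btg2. The full palindrome TGACGTCA was present in the Dusp1 and Btg2 windows, where it holds TGACG on both strands. Over all member windows, TGACG on either strand was found in 25 of 42 (59.5%), from 18 of 25 members, against 20.8% of the 32851 windows of all genes. TGACGTCA was found in 3 of 42 member windows (7.14%) against 1.79%, and the CArG box, the element of SRF, in 5 of 42 (11.9%), from 2 members, against 1.63%. TGANTCA, the AP-1 element, was found in 2 of 42 (4.76%) against 7.81%, and TATAAA in 4 of 42 (9.52%) against 13.6%. Windows of 1 gene can overlap, and neither base composition nor expression was matched. A match says only that the letters are present.

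Fos was the most abundant member per unit of exon length and, with Jund, the most widely detected. Expression required 10 CPM across the pooled libraries and a count in no less than 25% of either group. This held for 9113 genes and 25 of the 35 members. On the RPKM scale, CPM divided by exon length in kilobases, over all libraries, Fos stood at 445, followed by Dusp1 at 167, Junb at 125, Egr1 at 80.0, Jund at 79.7 and Gadd45g at 75.7. Fos was detected in 37 of 38 experiment libraries and in 66 of 66 controls, Jund in the same numbers, and Dusp1 in 36 of 38 and 64 of 66. Members lower on the scale were patchy: Arc had a count in 15 of 38 and 25 of 66 libraries, and Npas4 in 13 of 38 and 35 of 66. Of the 35 members, a median of 17 had a count in an experiment library (7 to 30) and 18.5 in a control library (5 to 29). The summed level of all members had a median of 2992 CPM in experiment libraries (455 to 18726) and 2219 CPM in control libraries (371 to 8810), so the ranges of the groups overlapped widely. Without Experiment27 and Experiment52 the experiment median was 2984 CPM and the highest library was at 8438 CPM, below the highest control library. Among the 25 expressed members, relative spread over control libraries, the SD divided by the mean, was smallest for Fos (0.775), Dusp1 (0.909) and Jund (0.917) and largest for Dusp6 (2.74) and Fosl2 (3.34). In experiment libraries it was 1.27 for Fos.

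**Figure D1:**
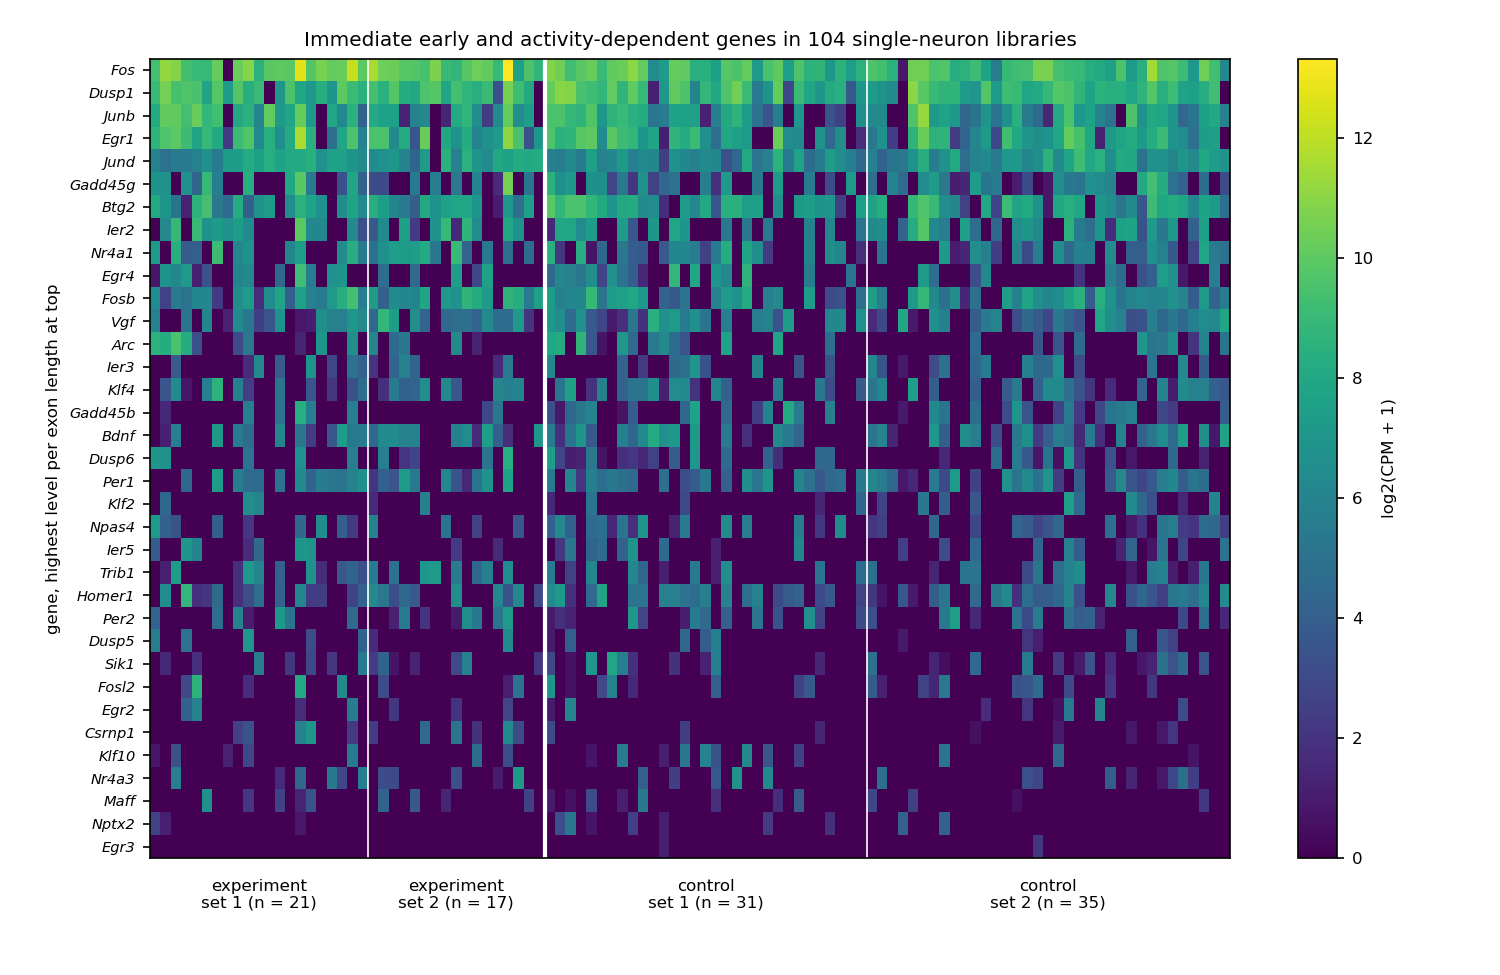
Level of the 35 members (rows, ordered by RPKM over all libraries) in each library (columns, 38 experiment and 66 control), as log2(CPM + 1), by group and title set. Fos, Dusp1, Junb, Egr1 and Jund were detected in most libraries of both groups, and rows further down are mostly at 0.

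Between the groups, 8 of the 25 expressed members were at least 1.5-fold higher in experiment libraries and 0 were at least 1.5-fold lower, where both the pooled CPM and the mean of the library CPM had to pass. Over all 9113 expressed genes 7.77% were higher by this rule and 11% lower. The 8 were the transcription factor genes Fos, Fosl2, Egr1 and Nr4a1, the synaptic gene Arc, the phosphatase gene Dusp6, the pseudokinase gene Trib1 and the growth-arrest gene Gadd45g. Without Experiment27 and Experiment52 (36 experiment libraries), 4 members were called higher (Fosl2, Arc, Nr4a1 and Trib1) and 2 lower (Btg2 and Gadd45b), against 7.69% and 11.2% of all expressed genes, and the median log2 ratio of the members fell from 0.54 to 0.22. Of the 8, Fos, Egr1, Dusp6 and Gadd45g were therefore called by both weightings only with these libraries in. At any size, in all libraries, 18 members were higher by both weightings and 3 lower (Btg2, Ier3 and Bdnf), where all expressed genes gave 40.9% higher and 45.8% lower. In all libraries the median log2 ratio of pooled CPM was 0.54 over the expressed members and −0.03 over all expressed genes. With a mean of log2(CPM + 1) per group, which gives less weight to libraries of high level, the medians were 0.04 and −0.38. By that measure 4 members were at least 1.5-fold higher (Fos, Fosb, Egr1 and Trib1) and 2 lower (Npas4 and Gadd45b), against 4.17% and 36.4% of all expressed genes. Without Experiment27 and Experiment52 the 4 were still past 1.5-fold, with differences of 0.71, 0.71, 0.71 and 0.76. Npas4, Gadd45b and Gadd45g were then at −0.68, −1.21 and −0.63, Dusp6 was at −0.37 and the member median was −0.06. No share over all genes is given for that setting. Among the 7 members of at least 100 CPM, 2 were called higher (Fos and Egr1) and 0 lower, against 2.44% and 4.03% of all genes of that level. At 2-fold by both weightings 1 member was higher, Fosl2, and 0 lower, against 2.35% and 3.8%.

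These counts moved when the libraries richest in glial transcripts were left out. Leaving out the 25% of libraries that were highest in glial markers left 25 experiment and 53 control libraries. Among these 2 members were called higher (Nr4a1 and Trib1) and 5 lower (Btg2, Ier3, Ier5, Gadd45b and Homer1), against 9.22% and 14.5% of all expressed genes, and the median log2 ratio was 0.08. Over experiment libraries, Spearman's rho (a rank correlation) with summed glial CPM was 0.55 for Junb, 0.53 for Egr1, 0.31 for Fos and 0.12 for Dusp1 (n = 38), and 0.48, 0.44, 0.18 and 0.088 without Experiment27 and Experiment52. Over control libraries the values were 0.28, 0.36, 0.33 and 0.23 (n = 66). By title set, defined below, the experiment values were 0.55, 0.74, 0.45 and 0.18 in set 1 (n = 21). In set 2 (n = 17) they were 0.26, 0.31, 0.20 and 0.22. For the mean log2(CPM + 1) of the expressed members rho was 0.66 in set 1 and 0.11 in set 2, against 0.15 and 0.31 in control libraries. The link in experiment libraries thus lay mostly in set 1. Libraries share depth, slice and collection, so these are descriptions. The part of glial RNA in the group difference was not tested.

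The counts also differed between subsets of libraries that the labels mark only by their titles. Titles and record order divide the libraries into title set 1 (21 experiment, 31 control) and title set 2 (17 and 35), and further into 4 record blocks. The labels call neither a batch. In set 1, 10 members were called higher and 0 lower (all expressed genes 9.69% and 16.6%), and in set 2, 7 higher and 3 lower (14.6% and 17.5%), the 3 being Ier3, Ier5 and Gadd45b. Of the 8 called in all libraries, 6 had a pooled ratio above 1 in both sets, where 6.24% of all expressed genes were both called higher and above 1 in both sets. The exceptions were Arc and Fosl2. Fos was the 1 member above 1 in all 4 blocks (all expressed genes 6.56%), and 12 members were above 1 in at least 3 blocks (28%). In block 4, however, 2 of 5 experiment libraries were above the control median for Fos. Experiment52 stood at 10251 CPM there and the other experiment libraries at 194 to 778 CPM, and block 4 was not run without Experiment52. Btg2 was the 1 expressed member below 1 in all 4 blocks (all expressed genes 11.4%). By block the numbers called higher and lower were 6 and 6 in block 1 (all expressed genes 18.7% and 28.5%), 11 and 3 in block 2 (11.6% and 18.1%), 9 and 6 in block 3 (16.2% and 21.9%) and 8 and 7 in block 4 (25% and 31%). The surplus of higher over lower members was thus widest in block 2.

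Scaling moved these numbers little, and the choice of libraries moved them more. Library sizes by TMM gave 8 higher and 0 lower (6.23% and 12.5%), and those by DESeq2 9 and 0 (8.75% and 10.4%). Sampling libraries down to 400000 counts gave 11 and 1 (11.1% and 14.9%). This left out the 4 experiment and 6 control libraries with fewer counts, so it changed the libraries as well as the scale. Dropping each group's highest library, gene by gene, gave 7 higher and 2 lower, Btg2 and Gadd45b (5.71% and 16.5%). Libraries with many genes detected gave 10 and 3 (9.6% and 15.8%), and those with a low share of ERCC spike-in RNA, a fixed amount of which was added to each tube, gave 4 and 4 (11% and 17.1%). In the experiment group the median ERCC share was 0.421%, against 0.251% in the control group, and its part in these counts was not tested.

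**Figure D2:**
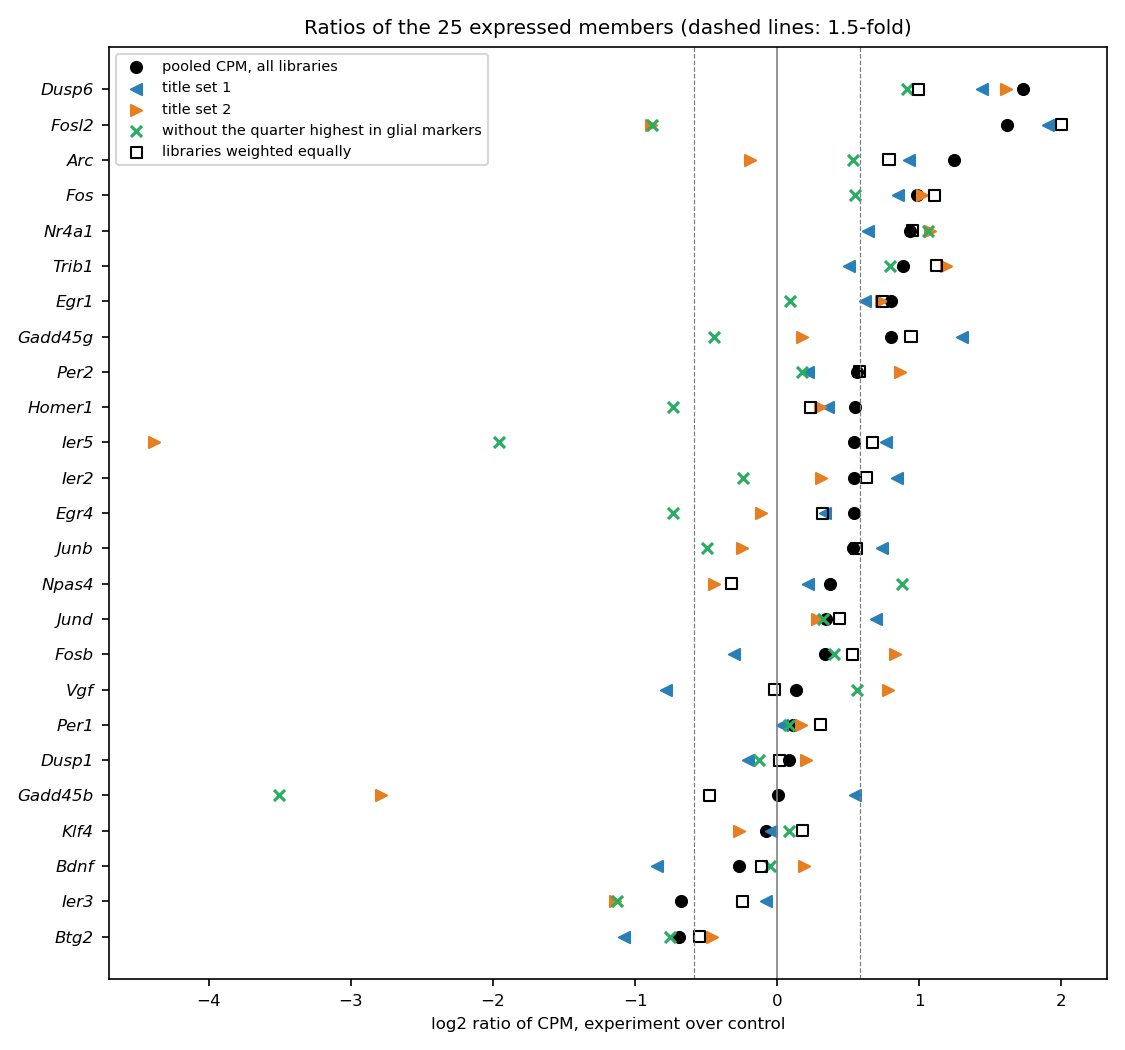
Log2 ratio of CPM, experiment over control, for the 25 expressed members in all libraries (filled circles), with libraries weighted equally (open squares), in each title set (triangles) and after leaving out the 25% of libraries highest in glial markers (crosses), with dashed lines at 1.5-fold. Fos, Egr1, Nr4a1, Dusp6 and Trib1 lie above 0 in every setting drawn, Btg2 lies below 0, and Fosl2, Arc, Gadd45b and Ier5 are among those that change sign.

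Of the AP-1 genes, whose products pair to form the AP-1 transcription factor, all 5 were expressed and 2 were called higher, Fos and Fosl2 (all expressed genes 7.77%). Fos (chr12:85473890-85477273) had its lowest, median and highest library at 0, 998 and 10251 CPM in the experiment group and at 0.902, 603 and 2880 CPM in the control group. The experiment libraries extended higher, with 29 of 38 above the control median and 4 above the highest control library, and the ranges otherwise overlapped. The pooled level was 1540 against 779 CPM, a ratio of 1.98 (95% interval 1.96 to 2.00, exact binomial, for counting error only) and of 2.15 with libraries weighted equally. The library Experiment52 gave 14.2% of the experiment group's Fos counts. Without Experiment27 and Experiment52 the ratio was 1.49 pooled, short of 1.5-fold, and 1.59 with equal weights. The log2 ratio was 0.98 in all libraries, 0.87 when each group lost its highest library, 0.85 in set 1 and 1.02 in set 2. With the glia-rich libraries left out it was 0.55. By block it ran from 0.06 in block 1 through 0.68 in block 3 and 1.70 in block 4 to 1.84 in block 2. In block 1 the median experiment library (647 CPM, 7 libraries) was below the median control library (1151 CPM, 10 libraries), and in block 4 the medians were 517 CPM (5 libraries) and 535 CPM (17 libraries). The higher Fos medians were thus those of block 2 (1071 against 385 CPM) and block 3 (1022 against 611 CPM).

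Fosl2 (Fra-2, chr5:32135801-32157842) was at 10.2 CPM over all libraries, just inside the expression rule, and Sik1 at 9.02 CPM just outside it. The level of Fosl2 was 18.1 CPM in the experiment and 5.89 CPM in the control group. Fosl2 thus met the 10 CPM mark only through the group where it was higher. Its median library was at 0 in both groups, and 8 of 38 experiment against 19 of 66 control libraries had any count. The highest library held 385 CPM in the experiment and 120 CPM in the control group. The ratio of 3.08 (2.73 to 3.47) therefore rested on few libraries, and Experiment05 alone gave 43.3% of the experiment counts. The log2 ratio turned to −0.89 in set 2 and was 0.83 without Experiment27 and Experiment52.

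Junb (chr8:84974484-84978718) ran from 0 through a median of 188 to 1242 CPM in experiment and from 0 through 123 to 2368 CPM in control libraries. Its ratio of 1.45 was below the 1.5-fold mark, and was 1.27 without Experiment27 and Experiment52. Its log2 ratio was 0.74 in set 1, −0.25 in set 2 and −0.49 with the glia-rich libraries left out. Jund, an AP-1 gene known for steady expression without a stimulus, had medians of 148 and 79.8 CPM (0 to 368 in experiment, 4.79 to 581 in control libraries) and a ratio of 1.27. Fosb, whose splice form ΔFosB is known to accumulate with repeated stimulation, had medians of 86.2 and 61.3 CPM and a ratio of 1.26. Splice forms were not separated in the table. Exons of Junb overlap those of Prdx2 on the opposite strand by 173 bases. Prdx2 had 46487 counts, and no source used here gives the strand setting, so reads of the shared stretch cannot be assigned.

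**Figure D3:**
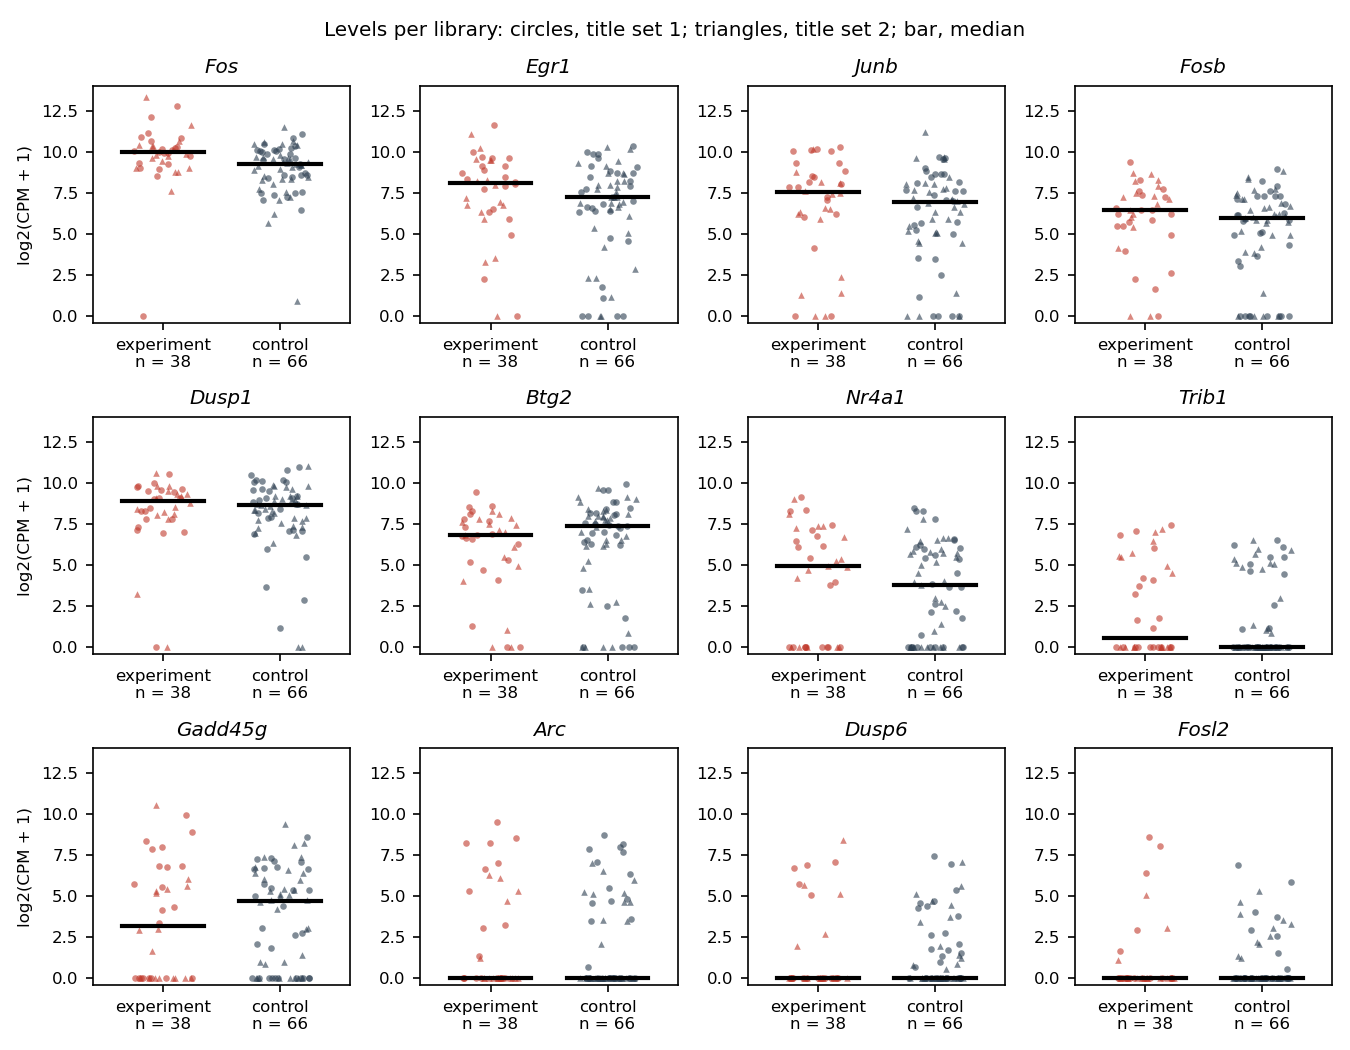
Levels of 12 members in each library as log2(CPM + 1), experiment (n = 38) and control (n = 66), with a bar at the median. Circles stand for title set 1 and triangles for title set 2. Fos, Egr1 and Junb have higher medians in experiment libraries, Btg2 a lower one, and the 2 groups overlap in all 12.

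Of the 4 EGR genes, zinc-finger transcription factors, 2 were expressed and Egr1 was called higher (all expressed genes 7.77%). It ran from 0 through 278 to 3129 CPM in experiment and from 0 through 151 to 1285 CPM in control libraries. In the experiment group 23 of 38 libraries were above the control median and 2 above the highest control library, of which Experiment27 alone gave 19.6% of the group's counts. The pooled level was 496 against 284 CPM, a ratio of 1.75 (1.71 to 1.78), and without Experiment27 and Experiment52 the ratio was 1.31. Its medians were 325 and 152 CPM in set 1 but 145 and 151 CPM in set 2, and the log2 ratio was 0.09 with the glia-rich libraries left out. Egr4 had a count in 18 of 38 and 30 of 66 libraries and a ratio of 1.45, or 0.959 without those libraries. Egr2 and Egr3 were not expressed. Egr2 had 113 counts (2.81 CPM) in the experiment and 291 (3.91 CPM) in the control group. Its ratio was 0.719 pooled and 1.21 with equal weights. Egr3 had 0 counts in the experiment group and 10 in 2 libraries of the control group.

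Nr4a1 (Nur77, an orphan nuclear receptor, chr15:101254269-101274795) ran from 0 through 29.9 to 568 CPM in experiment and from 0 through 13.1 to 352 CPM in control libraries. A count was present in 24 of 38 and 46 of 66 libraries, so detection was no more frequent in the experiment group. The ratio was 1.91 (1.83 to 2.00), with log2 ratios of 0.64 in set 1, 1.07 in set 2 and 1.06 with the glia-rich libraries left out. It was −2.27 in block 4, where 2 of 5 experiment libraries had a count, and −0.71 among libraries with a low ERCC share. Its relative Nr4a3 was not expressed (266 and 222 counts, 6.62 and 2.99 CPM).

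Npas4, the transcription factor known to respond to calcium entry rather than to growth factors, went different ways by weighting. Its pooled level was 17.5 against 13.5 CPM (ratio 1.29), but with libraries weighted equally the ratio was 0.801. Experiment libraries ran from 0 through a median of 0 to 140 CPM and control libraries from 0 through 1.69 to 117 CPM. Experiment01 gave 55.6% of the experiment counts. Libraries with at least 400000 counts were also thinned, that is sampled down, to that number. Npas4 was then detected in 11 of 34 experiment against 31 of 60 control libraries. Klf4 had a ratio of 0.949, and Klf2, Klf10 and Maff, also transcription factors, were not expressed.

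Of 8 genes grouped here by roles in signalling or growth, 6 were expressed and 3 were called higher (all expressed genes 7.77%). Dusp6 (chr10:99263231-99267489), the phosphatase of ERK, had a pooled level of 33.2 against 9.98 CPM, a ratio of 3.32 pooled and 1.99 with equal weights. Without Experiment27 and Experiment52 these were 2.41 and 1.04. It was detected in 10 of 38 experiment but 30 of 66 control libraries, with medians of 0 and highest libraries of 333 and 174 CPM, so fewer experiment libraries carried more of it. Trib1 (chr15:59648350-59657099) had a count in 19 of 38 and 26 of 66 libraries, a highest library of 170 CPM in experiment and 90.8 CPM in control libraries, and 5 experiment libraries above the highest control library. Its ratio was 1.85 (1.71 to 2.01), with log2 ratios of 0.50 in set 1, 1.19 in set 2 and 0.79 with the glia-rich libraries left out. The direction of Trib1 differed between blocks, with a pooled ratio below 1 in blocks 1 and 4. There 2 of 7 and 1 of 5 experiment libraries had a count, against 5 of 10 and 9 of 17 control libraries. Gadd45g (chr13:51846678-51848468), a stress-induced growth-arrest gene, had a ratio of 1.74 but a lower median in experiment (8.15 CPM, 0 to 1465) than in control libraries (25 CPM, 0 to 655). Experiment52, also the highest library for Fos, gave 25.4% of its experiment counts, and without Experiment27 and Experiment52 the ratio was 0.915.

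Dusp1 (MKP-1, the phosphatase of p38 and JNK) had a ratio close to 1, and Btg2 (an antiproliferative gene of immediate early type) had one below 1. Dusp1 (chr17:26505590-26562128) ran from 0 through 476 to 1530 CPM in experiment and from 0 through 409 to 2088 CPM in control libraries, with a ratio of 1.06 pooled and 1.01 with equal weights. Btg2 (chr1:134075170-134079120) ran from 0 through 115 to 681 CPM in experiment and from 0 through 163 to 955 CPM in control libraries. Its pooled ratio was 0.619 (0.600 to 0.638), and with equal weights 0.686, short of 1.5-fold lower. Its log2 ratio was below 0 in all 14 settings of libraries and scaling, from −1.44 in block 1 to −0.09 in block 2. In both title sets 7 experiment libraries were above the control median, of 21 in set 1 and 17 in set 2. The remaining genes grouped by roles in signalling or growth were Gadd45b, and Dusp5 and Sik1, which were not expressed. Gadd45b had a ratio of 1.01 pooled and 0.718 with equal weights. Experiment27 gave 62% of its experiment counts, and its pooled ratio was 0.404 without Experiment27 and Experiment52. Dusp5 had 496 counts (12.3 CPM) in the experiment and 160 (2.15 CPM) in the control group. Sik1 had 197 (4.90 CPM) and 836 (11.2 CPM).

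None of the 3 IER genes or the 2 clock genes, which are both circadian and inducible, was called. Ier2 had a ratio of 1.46 and Ier5 of 1.46 (both 1.08 without Experiment27 and Experiment52), and Ier3, a survival factor, one of 0.627 pooled and 0.846 with equal weights. Ier5 had a count in 9 of 38 and 21 of 66 libraries, and its log2 ratio was 0.77 in set 1 and −4.39 in set 2. Per1 had a ratio of 1.08 and Per2 of 1.47, or 0.877 and 1.27 without Experiment27 and Experiment52.

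Among the genes acting at the synapse or in secretion, 4 of 5 were expressed and Arc was called higher (all expressed genes 7.77%). Arc (chr15:74669083-74672570), a capsid-like protein of dendrites, had medians of 0 in both groups and highest libraries of 732 CPM in experiment and 414 CPM in control libraries. The pooled level was 78.8 against 33.3 CPM, with ratios of 2.37 (2.25 to 2.50) pooled and 1.73 with equal weights. Of the 3164 experiment counts, 2704 came from the 7 libraries of block 1, and of the 2473 control counts 1421 came from the 10 libraries of that block. Outside that block its log2 ratio was −0.66 in block 2, 2.38 in block 3 and, with 0 counts in the 5 experiment libraries, −5.29 in block 4, so the direction differed between blocks. Bdnf, the neurotrophin, had medians of 13.9 and 15.1 CPM (0 to 172 in experiment, 0 to 288 in control libraries) and a ratio of 0.832. Homer1, a postsynaptic scaffold whose short form is inducible, had medians of 4.92 and 12.7 CPM, highest libraries of 459 and 218 CPM and a ratio of 1.46, with 41.2% of the experiment counts from Experiment04. Vgf, a secreted neuropeptide precursor, had medians of 25.3 and 23.9 CPM, highest libraries of 447 and 351 CPM and a ratio of 1.10. Nptx2, a pentraxin that clusters AMPA receptors, was not expressed (19 and 155 counts, 0.473 and 2.08 CPM).

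Csrnp1, a nuclear protein first found as induced by AXIN1, was not expressed by the rule but was the member with the widest ratio. Its sums were 356 counts in the experiment and 22 in the control group, at 8.86 against 0.296 CPM, a ratio of 29.9 (19.5 to 48.4), or 19.4 without Experiment27 and Experiment52. A count was present in 11 of 38 and 8 of 66 libraries, and 7 experiment libraries lay above the highest control library, with 34.6% of the experiment counts in Experiment29. By title set the counts were 214 against 13 in set 1 and 142 against 9 in set 2, but block 1 had 0 counts in its 7 experiment and 8 counts in its 10 control libraries. With the glia-rich libraries left out 73 and 22 counts remained. Exons of Csrnp1 overlap those of 1700019L13Rik on the opposite strand by 224 bases. This member was singled out after its values were seen.

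Across single control neurons, pairs of expressed members had a higher median correlation than pairs of all expressed genes, and the strongest pairs lay among 6 genes. The median Spearman's rho over the 300 pairs of expressed members was 0.16 in control libraries (n = 66), with 255 pairs above 0, against 0.037 over all pairs of expressed genes. A rho of at least 0.5 was reached by 14 pairs (4.67%) against 0.0264% of all pairs. In experiment libraries (n = 38) the median was 0.13 against 0.044, with 224 pairs above 0, and 1 pair reached 0.5 (0.333% against 0.314%). Without Experiment27 and Experiment52 the experiment median was 0.11 and 2 pairs reached 0.5 (0.667% against 0.4%). With the number of genes detected regressed out of the ranks the medians were 0.14 in control and 0.10 in experiment libraries, and the control value stayed between 0.14 and 0.18 within title sets, after thinning and under the other scalings. In smaller subsets more pairs of all genes reached 0.5. By title set 22 member pairs reached it in the experiment libraries of set 1 (7.33% against 2.42%) and 6 in those of set 2 (2% against 3.35%), and 18 (6% against 0.776%) and 10 (3.33% against 0.4%) in control libraries. By record block the experiment median was 0.27 in block 2 (14 libraries, all pairs 0.048), where 58 pairs reached 0.5 (19.3% against 5.42%), and 0.015 in block 3 (12 libraries, all pairs 0.044), where 15 did (5% against 6.85%). The control median was 0.099 in block 2 (21 libraries, all pairs 0.050), 0.138 in block 3 (18 libraries, 0.040) and 0.117 in block 4 (17 libraries, 0.011). There 18 control pairs (6% against 2.60%), 26 (8.67% against 3.43%) and 11 (3.67% against 2.72%) reached 0.5. The experiment value thus differed widely between blocks, and in block 2 it was above the control value. All pairs rest on libraries that share depth and preparation, and abundant genes allow higher correlations than sparse ones. Members were not matched on level.

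**Figure D4:**
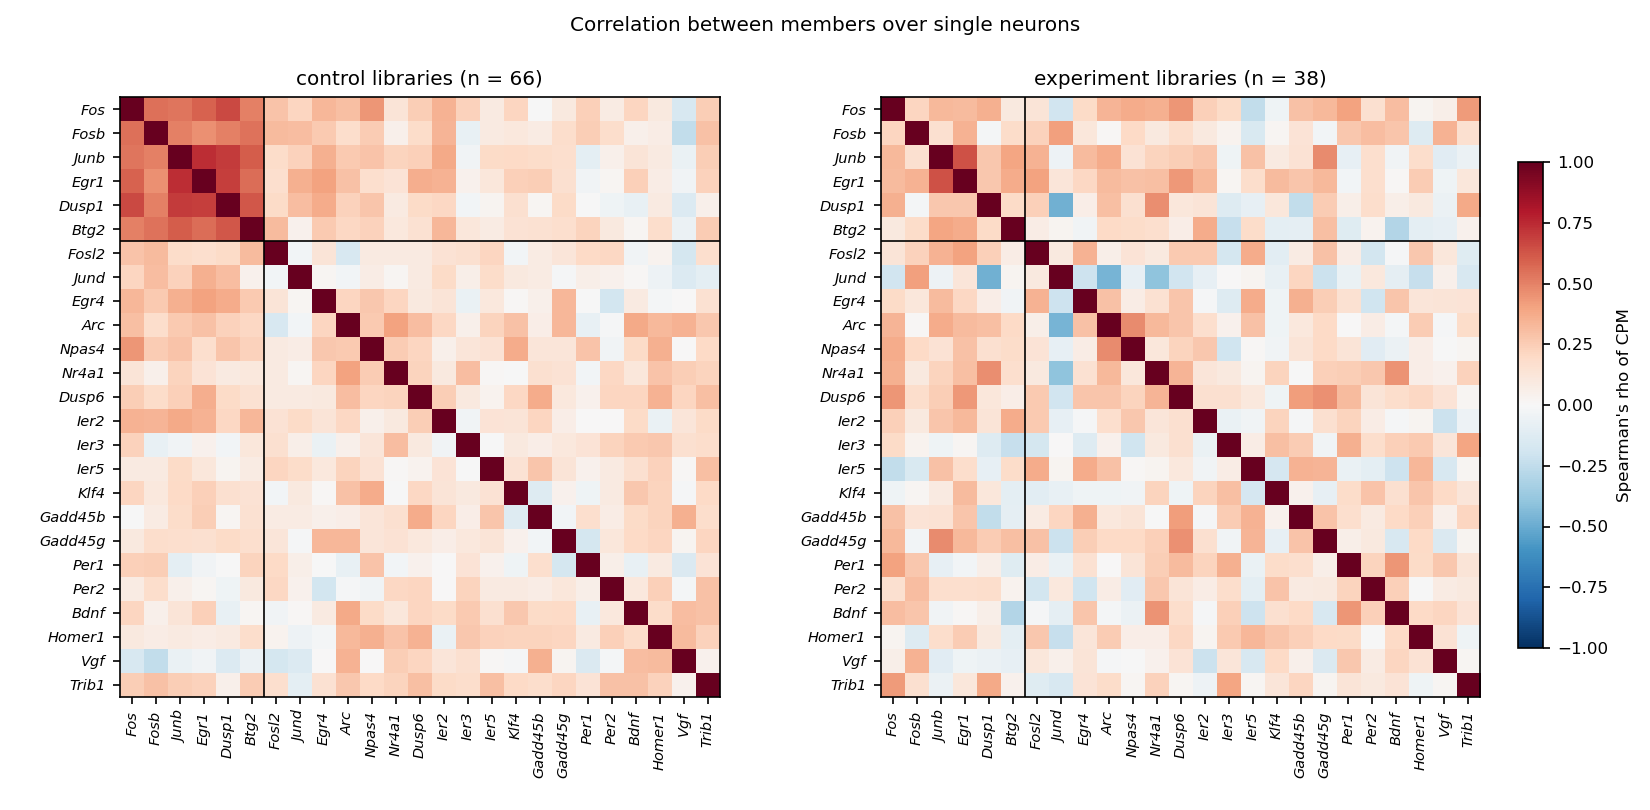
Spearman's rho of CPM between the 25 expressed members over control (left, n = 66) and experiment libraries (right, n = 38). The black lines set off Fos, Fosb, Junb, Egr1, Dusp1 and Btg2, which were chosen by their control values. Within that block Junb with Egr1 is highest in both groups, at 0.74 in control and 0.64 in experiment libraries.

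All 14 control pairs at or above 0.5 joined 6 genes: Fos, Fosb, Junb, Egr1, Dusp1 and Btg2. They were picked after their values were seen, so their control values are a description of that choice, and lower values in the other group are in part set by it. Junb and Egr1 had the highest rho, 0.74 in control and 0.64 in experiment libraries. Next came Junb with Dusp1 (0.70 in control, 0.27 in experiment), Egr1 with Dusp1 (0.69 and 0.27), Fos with Dusp1 (0.66 and 0.36) and Dusp1 with Btg2 (0.62 and 0.19). Over the 15 pairs the median was 0.56 in control (0.46 to 0.74) and 0.27 in experiment libraries (−0.02 to 0.64). Fos, Fosb, Junb, Dusp1 and Btg2 have the promoter windows printed above, each with at least 1 TGACG. Of all 25 members with a window 18 had TGACG, so these letters are not particular to the genes picked, and Egr1 had no window.

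The medians of the 15 pairs were 0.54 in control and 0.32 in experiment libraries at 400000 counts each, and 0.56 and 0.28 with genes detected regressed out. In title set 1 they were 0.65 in control and 0.25 in experiment libraries, and in title set 2 0.49 and 0.35. With the glia-rich libraries left out they were 0.57 and 0.10, and without Experiment27 and Experiment52 the experiment median was 0.24. Within record blocks, where 12 to 21 libraries remained, control medians were 0.51, 0.66 and 0.43 in blocks 2, 3 and 4 and experiment medians 0.35 and 0.24 in blocks 2 and 3. The mean log2(CPM + 1) of the 6 genes had a rho with gene counts of 0.72 over the control libraries of set 1 and −0.07 over those of set 2, so depth moved with these genes in 1 set, and its part in the correlations was not tested. Whether the groups differ in these correlations was not tested, and with 38 and 66 libraries single pairs are imprecise.

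**Figure D5:**
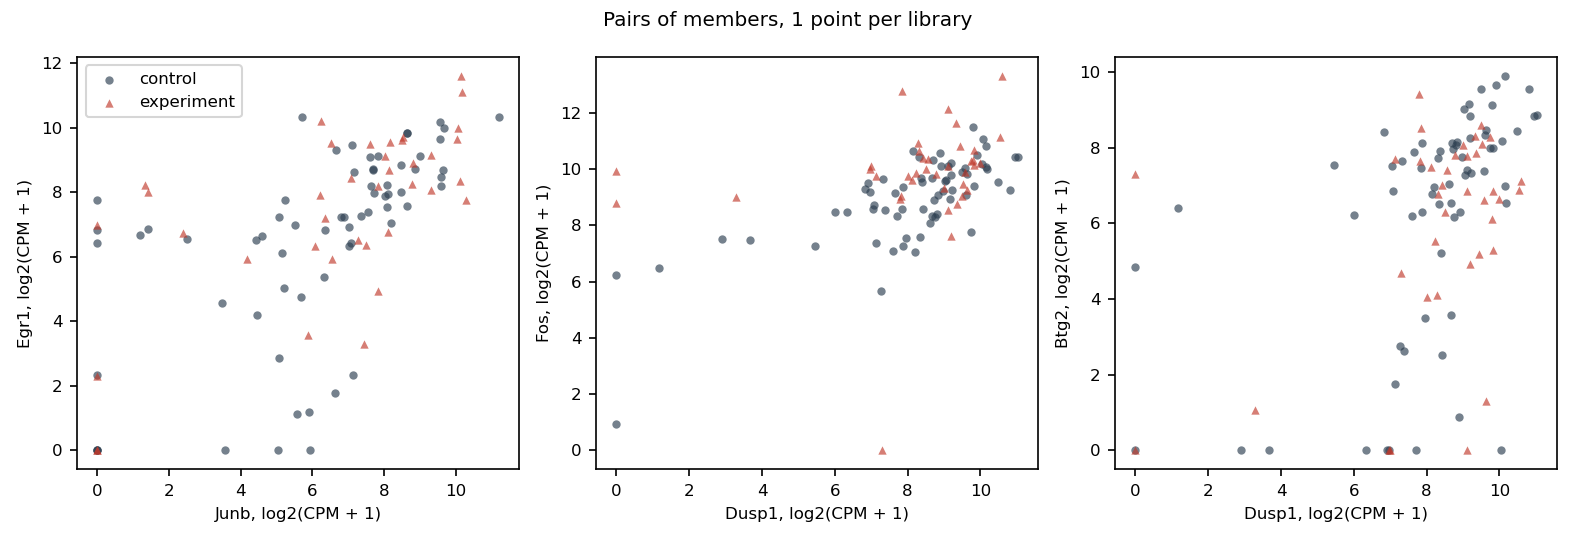
Levels of 3 pairs of members as log2(CPM + 1), 1 point per library, control circles and experiment triangles. Junb and Egr1 (left) follow each other in both groups, with rho of 0.74 in control and 0.64 in experiment libraries, whereas Dusp1 with Fos (middle) and with Btg2 (right) scatter more in experiment libraries, at 0.36 and 0.19.

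Single members differed in how far they followed the rest. The correlation of a member with the mean log2(CPM + 1) of the other expressed members was highest in control libraries for Fos (0.62), Egr1 (0.58), Junb (0.57) and Btg2 (0.51) and lowest for Per1 (0.10) and Vgf (0.085). In experiment libraries it was highest for Egr1 (0.61), Fos (0.51) and Junb (0.49), and Btg2 was at 0.21. Jund was at 0.20 in control and at −0.27 in experiment libraries. Its lowest pairs in experiment libraries were with Dusp1 (−0.48, control 0.31), Arc (−0.46, control −0.03) and Nr4a1 (−0.40, control 0.02), and the value with Dusp1 was −0.61 in set 1 and −0.35 in set 2. Arc and Npas4, both linked to synaptic drive, had a rho of 0.47 in experiment and 0.26 in control libraries. At 400000 counts both were detected together in 7 of 34 experiment against 17 of 60 control libraries. The mean log2(CPM + 1) of all expressed members had a rho with genes detected of 0.42 in control and 0.43 in experiment libraries, against 0.02 and 0.13 for that of the 6 genes.

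The genes outside the list most like it were led by Jun, the AP-1 partner of FOS. Likeness was the smaller of the 2 values of Spearman's rho, in control (n = 66) and in experiment libraries (n = 38), with the mean of the expressed members. Jun had 0.47 in control and 0.66 in experiment libraries, and its level was 277 against 152 CPM (ratio 1.82). Next were Meis2 (0.46 and 0.46), Neat1 (0.43 and 0.46), Gucy1a3 (0.51 and 0.42), Sgce (0.44 and 0.41), Kcna1 (0.42 and 0.41), Kcnc2 (0.40 and 0.43), Cldn11 (0.47 and 0.40) and Cav2 (0.39 and 0.42). Cldn11 is also among the oligodendrocyte markers used here. Ratios of these genes after Jun ran from 0.514 for Cldn11 to 2.23 for Meis2. Over the experiment libraries of set 2 their rho ran from 0.21 for Neat1 to 0.64 for Kcnc2. Over all 9113 expressed genes the median rho was 0.085 in control and 0.072 in experiment libraries. A rho of at least 0.5 was reached by 17 genes in control and by 48 in experiment libraries.

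Further genes of the response are set beside the same background (7.77% called higher, 11% called lower, median log2 ratio −0.03). Of 36 further inducible genes 26 were expressed, 4 were called higher (Siah2, Jun, Cyr61 and Sgk1) and 3 lower (Gpr3, Crem and Coq10b), with a median log2 ratio of 0.03. Gpr3 had a ratio of 0.359 and Siah2, a ubiquitin ligase, one of 2.14. Of 31 genes of the upstream calcium, cyclic AMP and ERK signalling 26 were expressed, with Braf higher (ratio 1.77) and Rps6ka2 (0.360) and Mapk3 (ERK1, 0.501) lower, and a median log2 ratio of −0.13. Of 14 genes of heat shock and tissue handling 7 were expressed and 2 were higher, Hspa1a (1.63) and Nfkbia (1.56), with a median of 0.03. Hspa1a has a near-identical copy, Hspa1b, so its counts are uncertain. Hspa8, the constitutive chaperone of this list, was at 3292 against 3955 CPM. The mean of this list had a rho with the mean of the members of 0.40 in control and 0.28 in experiment libraries.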

How the data were processed

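RNA of single neurons was collected by patch pipette, copied by Smart-seq2 and made into HyperPlus libraries, as the labels' protocols say. The authors deposited 1 table of counts (whole numbers of reads for each gene symbol) with 92 rows of ERCC spike-ins that were kept out of library totals. STAR 2.5.3a, featureCounts 1.5.3 and mm10 appear in the submitters' processing notes, with no role or order. No source used here gives the annotation, the strandedness or how multimapping reads were handled. Reads carry no molecular identifiers, so intervals cover counting error only, and deeper libraries weigh more in pooled levels.

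Groups came from titles. All libraries passed a minimum of 50000 gene counts and 1000 genes, and 0 columns of the table were unmapped. A gene's counts were summed per group and divided by the group's gene counts (pooled CPM), or averaged as library CPM. A gene was called at 1.5-fold by both, with group sums under 3 raised to 3 counts. Ratios carry exact binomial and levels exact Poisson 95% intervals. Lengths and overlaps came from GENCODE vM21 exons (GRCm38). Library sizes by TMM (edgeR 4.0.16) and by DESeq2 1.42.0 size factors, in R 4.3.3, were alternatives. Correlations used Python 3.11.15 with scipy 1.17.1 and pandas 2.3.3, and the code was tested on simulated counts.

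The members, gene lists, thresholds and subsets were chosen with earlier results of these data known. All 35 members are accounted for. Library ranges are given for members called, for the 6 highest per length and for 10 set by name, and non-members by the rank stated beside them, of which 1 is not reported here. From each further list the 3 genes with the largest smaller-of-2 log2 ratio are given.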

Additional observations from a re-analysis of the deposited data

How the results depend on the processing

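Of the 25 expressed members, 8 were called higher and 0 lower in all libraries (all expressed genes 7.77% and 11%). The numbers were 4 and 2 without Experiment27 and Experiment52, chosen after the data were seen (7.69% and 11.2%), 4 and 2 by difference of mean log2(CPM + 1) (4.17% and 36.4%), 2 and 5 without the 25% of libraries highest in glial markers (9.22% and 14.5%), and 4 and 4 in libraries at or below the median ERCC share (11% and 17.1%). At 2-fold 1 was higher (2.35%). The number called lower was 1 at 400000 counts per library and 2 with each group's highest library dropped. In title set 2 it was 3, as it was in libraries at or above the median number of genes detected. By record block it was 6, 3, 6 and 7 in blocks 1 to 4. Taking every member with 3 counts in a group brought in members that were not expressed. Of those, Klf10, Sik1 and Nptx2 were called lower. Nr4a3, Dusp5, Maff and Csrnp1, also not expressed, were then added to the 8 called higher. No share over all genes is given for that filter. The median log2 ratio, 0.54 in all libraries, was 0.22 without Experiment27 and Experiment52, 0.039 by difference of mean log2(CPM + 1), 0.19 in title set 2, 0.0014, 0.65, 0.33 and 0.13 in blocks 1 to 4, 0.36 without the highest library of each group, 0.080 with glia-rich libraries left out and 0.40 at low ERCC share. Other settings kept the counts called higher within 1.5 times and the median within 0.1. The median pairwise rho, 0.13 in experiment libraries, was 0.27 in block 2 and 0.015 in block 3, and moved by under 0.1 in the other settings run.

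Of the 8 members called higher, Fos kept its direction in all 16 alternatives. Its value in block 4 included Experiment52, and that block was not run without this library. Fosl2 turned to −0.89 in title set 2, −3.34 in block 3 and −0.88 with glia-rich libraries left out. Egr1 was at −0.030 in block 1. Arc turned to −0.19 in title set 2, −0.66 in block 2, −5.29 in block 4 and −0.083 among libraries with many genes. Nr4a1 turned to −2.27 in block 4 and −0.71 at low ERCC share. Dusp6 was at −0.032 by difference of means and −0.052 in block 3. Gadd45g was at −0.25 by difference of means, −0.89 in block 3, −0.45 with glia-rich libraries left out and −0.13 without Experiment27 and Experiment52. Trib1 turned to −1.44 in block 1 and −0.41 in block 4. The cause was not tested, and blocks hold as few as 5 experiment libraries. No paired analysis was possible because title numbers only name neurons, no label ties equal numbers to 1 animal or day, and no test was made. Members under about 10 CPM rest on few libraries, so depth limits what their ratios can show.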
